A study of Mus musculus with 6 samples.

Results

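The genes of Notch receptors, Notch ligands and Fringe enzymes were described in tumor endothelial cells (TECs) with and without forced endothelial Notch signaling. The 10 members were taken by gene symbol: 4 receptors (Notch1, Notch2, Notch3 and Notch4), 4 ligands (Dll1, Dll4, Jag1 and Jag2) and 2 Fringe genes (Lfng and Mfng), out of 23473 RefSeq gene rows in the table. Bulk RNA-seq was done on 3 control (Ctrl) and 3 NICeCA mice of the C57BL/6 strain, labelled as 8 weeks old, that bore tumors of LLC, the Lewis lung carcinoma cell line of mouse origin. NICeCA mice carry an inducible Cre recombinase (Cdh5 cre ERT2), which is driven by the endothelial cadherin promoter and is active only after tamoxifen, and a Rosa26 allele from which Cre removes a stop so that the Notch1 intracellular domain (ICD) is made. The labels give the Ctrl genotype as wild type, and do not say whether Ctrl mice carried either allele or received tamoxifen. The cells were taken up with CD31 antibody beads from tumors that, by the labels, had been dissected on different days. The paper gives a single day after inoculation for the tumors used in bulk RNA-seq.

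Notch receptors are membrane proteins that are cut after a ligand of the Delta-like (Dll) or Jagged (Jag) type on a neighboring cell pulls on them, and the freed ICD then works in the nucleus with the DNA-binding protein RBPJ. Fringe enzymes add sugars to the receptor, which favors its response to Dll ligands over Jag ligands. In sprouting vessels Dll4 is the main activating ligand of tip cells, Jag1 counteracts it in stalk cells, Notch1 and Notch4 are the endothelial receptors, and Notch3 is typical of pericytes and smooth muscle around the vessel. The comparison asked which parts of this signaling family were present at the RNA level in TECs, and which of them differed once the receptor's active fragment was supplied from a transgene.

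The authors deposited RPKM (reads scaled to the length of the gene model and to the reads of the library), so that levels of different genes can be set side by side. The Ctrl libraries held 29818454 to 30769916 reads on RefSeq rows and the NICeCA libraries 27793301 to 29194187. Of the members, Dll1 rested on the fewest reads (158 to 292 per library) and Notch2 on the most (9455 to 19503). All 10 members passed the filter of a mean of at least 1 RPKM, which 12320 RefSeq rows passed. The summed level of 12 endothelial markers was 527 RPKM in Ctrl replicate 1, against 201 and 269 in Ctrl replicates 2 and 3 and 448, 586 and 540 in the NICeCA libraries, so Ctrl replicate 1 stood apart from its own group. None of the 12 was under 1 RPKM in every library, and all had a positive log2 fold change (median 0.66). Pecam1, which encodes CD31, had 135, 47.5 and 82.6 RPKM in Ctrl and 125, 154 and 142 RPKM in NICeCA libraries, and the endothelial cadherin Cdh5 had 82.4, 30.9 and 43.3 against 59.2, 78.6 and 96.5. Levels in a bulk fraction do not tell apart fewer cells of a type from less RNA per cell. Transcripts of other cells were present as well, although the labels state a high purity. The pan-leukocyte gene Ptprc had 45.5, 27.8 and 76.2 RPKM in Ctrl and 51.7, 59.1 and 53.7 in NICeCA libraries, and the macrophage lysozyme gene Lyz2, chosen after its values were seen, had 2611 to 5555 RPKM over the 6 libraries.

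At an adjusted p under 0.05 (limma on log2(RPKM + 1), Benjamini-Hochberg over all 12320 rows), 1 of the 10 members was called higher in NICeCA TECs, namely Jag1, and none was called lower. Over all tested genes 5.88% were called higher and 7.68% lower. At an unadjusted p under 0.05, 3 members were past the threshold (Jag1, Jag2 and Dll4, all higher). So were 4377 of all 12320 tested genes, in either direction. The median log2 fold change of the members was 0.41 with 9 of 10 positive, beside a median of -0.05 over all tested genes, and limma voom on recovered reads also called 1 member higher and 0 lower. Jag1 was also the one member whose NICeCA libraries lay wholly above the Ctrl libraries, a state found in 16.5% of all tested genes, while 24.4% lay wholly below and no member did.

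**Figure D1:**
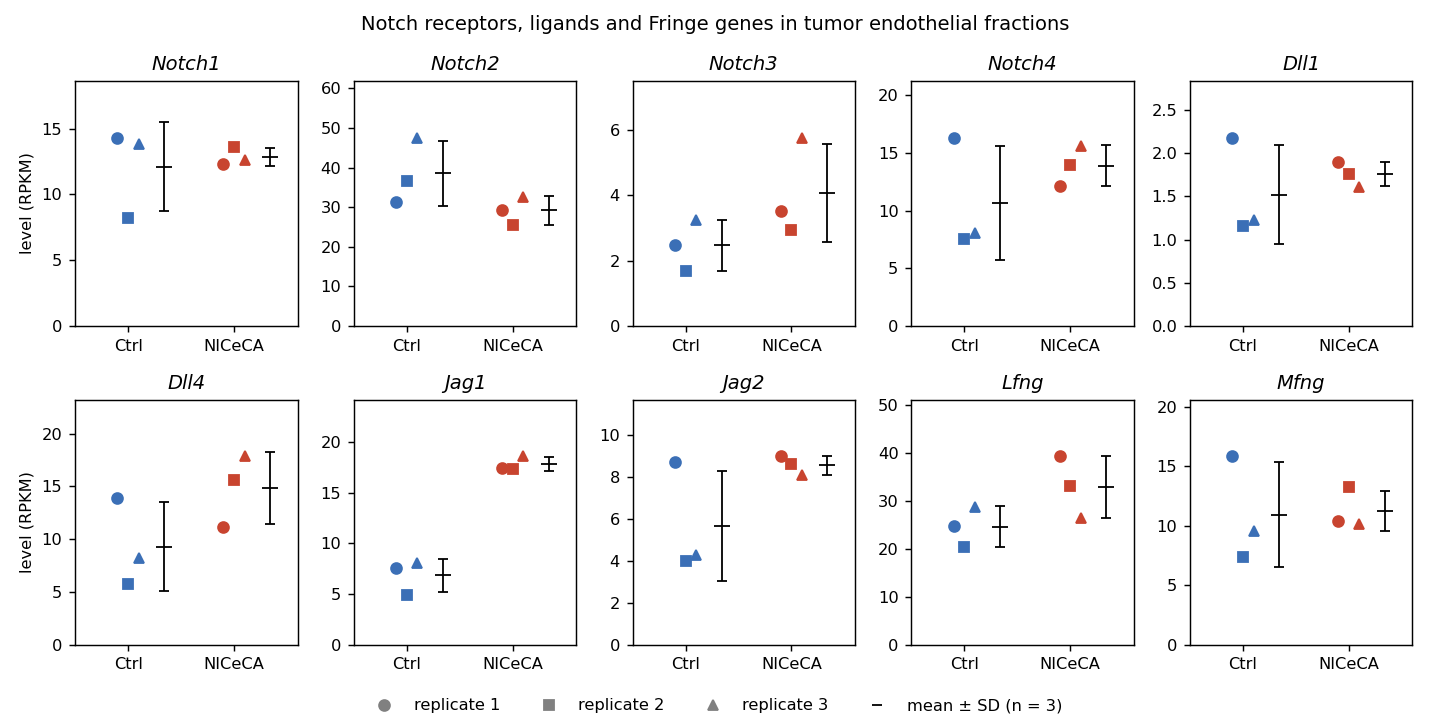
Level of each member in RPKM (vertical axes, from 0) in the 3 Ctrl and 3 NICeCA libraries, with the mean ± SD of each group beside the points and a marker shape for each replicate number. The groups are apart for Jag1, with 4.93 to 8.02 RPKM in Ctrl and 17.4 to 18.6 in NICeCA libraries, and overlap for the other 9 members, in several of which Ctrl replicate 1 lies with the NICeCA libraries.

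The levels were ordered within each group by the mean over its libraries. In Ctrl libraries, Notch2 (mean 38.6 RPKM) and Lfng (24.6) stood above the rest, with the ranges of the libraries not touching. Notch1 (12.1), Mfng (10.9), Notch4 (10.7), Dll4 (9.28), Jag1 (6.83) and Jag2 (5.65) followed, with ranges that overlapped from neighbor to neighbor. Notch3 (2.47) and Dll1 (1.52) came last, both below the range of Jag2 and overlapping each other. In NICeCA libraries Lfng (32.9) and Notch2 (29.2) led with overlapping ranges, and Jag1 (17.8) followed them, ahead of Dll4 (14.9), Notch4 (13.9), Notch1 (12.8) and Mfng (11.3), whose ranges overlapped from neighbor to neighbor. Jag2 (8.55), Notch3 (4.07) and Dll1 (1.76) closed the order, each apart from the one above it.

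Among ligands, the Jagged ligand Jag1 (chromosome 2, 137081451 to 137116520, minus strand, GRCm38) had 7.54, 4.93 and 8.02 RPKM in Ctrl and 17.4, 17.4 and 18.6 RPKM in NICeCA libraries. The lowest NICeCA library was above the highest Ctrl library, and the NICeCA libraries differed little among themselves. The mean rose from 6.83 ± 1.66 to 17.8 ± 0.71 RPKM (SD, n = 3 each), which is 2.61-fold, with a log2 fold change of 1.29 (standard error 0.17, 95% interval from 0.89 to 1.68, limma adjusted p = 0.011). These values rested on 1079 to 1718 reads in Ctrl and 3374 to 3812 in NICeCA libraries. After removal of any 1 library, Jag1 stayed at a log2 fold change between 1.10 and 1.40, but the call was missed without NICeCA replicate 1 (limma adjusted p = 0.052) and without NICeCA replicate 2 (0.055). Ctrl replicate 1, whose endothelial marker sum was within the NICeCA range, had 7.54 RPKM of Jag1, below every NICeCA library. With the mean of the endothelial markers as a covariate, the log2 fold change was 1.09 (standard error 0.21) and was not called (limma adjusted p = 0.12), in a fit that called 0 genes higher or lower among all tested, with 2257 genes at an unadjusted p under 0.05.

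Several markers of other vessel and blood cells were also higher in all NICeCA libraries, and their part in the Jag1 difference was not tested. The summed level of 9 mural (pericyte and smooth muscle) markers was 37.2 to 54.1 RPKM in Ctrl and 77.0 to 145 RPKM in NICeCA libraries, with 5 of 9 genes wholly above. That of 6 platelet markers was 120 to 209 RPKM against 1192 to 1324, with 3 of 6 wholly above. This sum was carried by Pf4 (102 to 172 against 889 to 1126 RPKM) and Ppbp (5.83 to 21.1 against 173 to 280 RPKM), while Itga2b, Gp9 and Gp1bb overlapped. These genes were named after their values were seen, as were Pdpn, Lyve1 and Flt4. The sum of 5 lymphatic endothelial markers was 34.1 to 71.5 against 132 to 164 RPKM, and was carried by Pdpn (27.2 to 51.3 against 112 to 143 RPKM). The lymphatic regulator Prox1 was the other of the 2 genes wholly above but stayed under 1 RPKM (0.012 to 0.081 against 0.086 to 0.267), Lyve1 and Flt4 overlapped, and the lymphatic chemokine gene Ccl21a was listed at 0 in all 6 libraries. The sums of 11 leukocyte markers overlapped (4183 to 6077 against 4587 to 5815 RPKM), although 5 of 11 genes were wholly above, among them the neutrophil gene S100a8 with 29.7 to 93.9 RPKM in Ctrl and 196 to 660 RPKM in NICeCA libraries. The leukocyte sum came mostly from Lyz2 (3635 to 5555 against 2611 to 4562 RPKM), so its overlap mainly describes that gene. The sum of 7 fibroblast markers was lower (390 to 656 against 180 to 354 RPKM), with 4 of 7 genes wholly below. It came mostly from Col3a1 (270 to 454 against 103 to 226 RPKM). Col1a1, Col1a2 and Dcn overlapped, with log2 fold changes of 0.10, 0.55 and -0.82. These fibroblast genes were also named after their values were seen. The sum of 7 epithelial and tumor cell markers overlapped (6.86 to 12.6 against 6.54 to 8.83 RPKM), with 5 of 7 genes under 1 RPKM in every library and Krt19 and Sftpc at 0 in at least 1 of them.

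The start of Jag1 is shown because it belongs to the only called member. The window runs from 250 bases before to 50 after the RefSeq start (RefSeq, GRCm38.p6, chr2:137116471-137116770, minus strand, 5′ to 3′). The sequence is in lower case throughout because the RBPJ core TGGGAA, for which capitals are kept, is on neither strand of it.

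Jag1: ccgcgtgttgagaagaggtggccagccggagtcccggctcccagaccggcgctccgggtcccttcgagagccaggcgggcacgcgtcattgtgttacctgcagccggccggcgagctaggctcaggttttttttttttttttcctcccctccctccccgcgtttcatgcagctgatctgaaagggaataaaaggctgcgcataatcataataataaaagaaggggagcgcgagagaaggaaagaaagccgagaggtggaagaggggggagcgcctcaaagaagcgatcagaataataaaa

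The core is found in 25.6% of all 32851 promoter windows of that length. The longer form GTGGGAA, which contains the core, is in 6.4% of them and the palindrome CACGTG in 7.2%. Of the members, 9 have such windows (10 windows in all), and only that of Lfng holds any of these 3 motifs. The TATA letters TATAAA, searched on both strands as well, are in none of the members' windows and in 13.6% of all windows. A match or its lack describes the letters of these windows only.

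**Figure D2:**
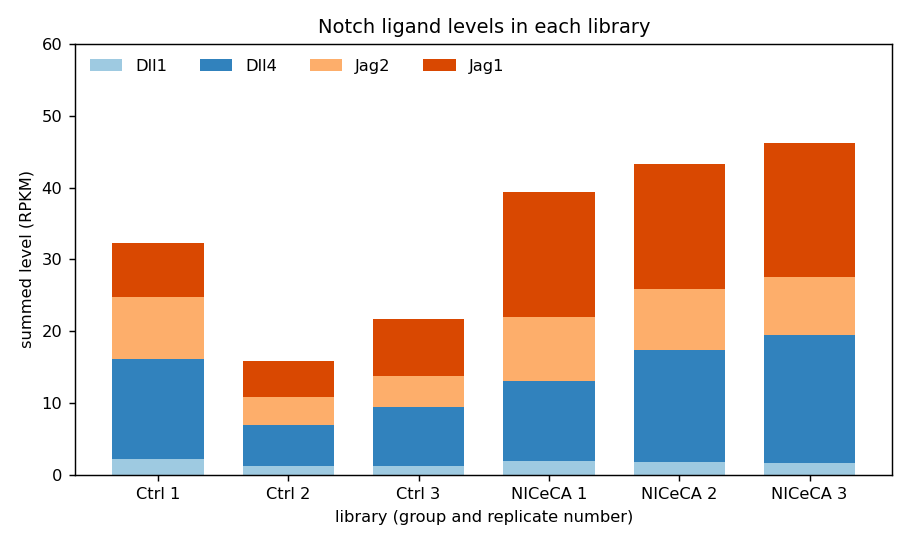
Summed level of the 4 ligands in RPKM (vertical axis, from 0) in each library, stacked in the order Dll1, Dll4, Jag2 and Jag1. The total is 15.8 to 32.3 RPKM in Ctrl and 39.4 to 46.2 RPKM in NICeCA libraries, and Jag1 makes up 23.3% to 36.9% of it in Ctrl and 40.1% to 44.2% in NICeCA libraries.

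Dll4 (chromosome 2, 119325784 to 119335666, plus strand), the Delta-like ligand of endothelial tip cells and arteries, had 13.9, 5.73 and 8.20 RPKM in Ctrl and 11.1, 15.6 and 17.9 RPKM in NICeCA libraries. Ctrl replicate 1 lay above NICeCA replicate 1, so the groups overlapped. The means were 9.28 ± 4.19 and 14.9 ± 3.43 RPKM (SD, n = 3 each), and the log2 fold change of 0.68 (standard error 0.29, 95% interval from 0.01 to 1.35) was not called (limma adjusted p = 0.14). Gm14207 overlaps the 5′ end of Dll4 on the other strand, and with the strand setting of the counting unknown here, reads of the shared bases cannot be told apart. Gm14207 had 8.11, 2.95 and 4.64 RPKM in Ctrl and 5.46, 9.43 and 8.89 RPKM in NICeCA libraries, which also overlap.

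Jag2 (chromosome 12, 112908590 to 112929495, minus strand), the second Jagged ligand, had 8.68, 4.00 and 4.27 RPKM in Ctrl and 8.98, 8.59 and 8.07 RPKM in NICeCA libraries. Ctrl replicate 1 lay among the NICeCA libraries and the other Ctrl libraries were clearly below. The log2 fold change of 0.59 (standard error 0.24, 95% interval from 0.03 to 1.15) was not called (limma adjusted p = 0.13). Dll1 (chromosome 17, 15367354 to 15375823, minus strand), a Delta-like ligand of arteries and of many progenitor cells, was the lowest member, with 2.18, 1.16 and 1.23 RPKM in Ctrl and 1.89, 1.76 and 1.61 RPKM in NICeCA libraries. Its highest and its lowest library were both Ctrl, and the log2 fold change was 0.15 (95% interval from -0.26 to 0.56, limma adjusted p = 0.57). Dll3, the remaining Delta-like gene, which does not activate receptors on other cells, was at 0 to 0.063 RPKM and was not tested.

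The balance between ligands was compared within libraries, where the scale of a library cancels. The log2 ratio of Dll4 to Jag1 was 0.88, 0.22 and 0.03 in Ctrl and -0.65, -0.16 and -0.06 in NICeCA libraries, so that Dll4 was above Jag1 in every Ctrl library and below it in every NICeCA library. The difference was -0.67 on the log2 scale, a ratio 0.63 times that of Ctrl (two-sided exact permutation p = 0.1, n = 3 each, the smallest p that this design allows). Adjusted over the 5 ratios compared, p was 0.25, and the change with 1 library left out was between -0.84 and -0.41, with the smallest difference, -0.41, without Ctrl replicate 1. Jag1 and Jag2 together supplied 50.2% to 56.6% of the ligand RPKM in Ctrl and 57.8% to 67.0% in NICeCA libraries, and the share of Dll4 was 36.2% to 43.0% against 28.2% to 38.7%. The log2 ratio of summed Dll to summed Jag was -0.26 ± 0.21 in Ctrl and -0.69 ± 0.30 in NICeCA libraries (SD, n = 3 each), with the lowest Ctrl library at -0.38 and the highest NICeCA library at -0.46. For this ratio the two-sided exact permutation p was 0.1, and 0.25 when adjusted over the 5 ratios. It includes the Dll4 and Jag1 values of the ratio above, so the 2 ratios are not independent.

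Among receptors, Notch1 (chromosome 2, 26457902 to 26503822, minus strand), the gene from which the transgene's fragment comes, had 14.3, 8.19 and 13.8 RPKM in Ctrl and 12.3, 13.6 and 12.6 RPKM in NICeCA libraries. The NICeCA libraries lay inside the Ctrl range, and the log2 fold change was 0.11 (standard error 0.20, 95% interval from -0.35 to 0.58, limma adjusted p = 0.71). This row covers the whole gene, 34 exons in the longest coding transcript of GENCODE M21, so that reads of the endogenous gene and of the transgene's fragment fall into 1 value. Other rows of the table lie inside the gene, and none covers the ICD exons alone. One, of 901 bases (26457906 to 26458806), lies wholly in the 3′ UTR, with 9.58, 5.88 and 10.9 RPKM in Ctrl and 8.64, 10.1 and 8.43 RPKM in NICeCA libraries. The log2 ratio of the Notch1 row to this row was 0.47 ± 0.12 in Ctrl and 0.51 ± 0.08 in NICeCA libraries (SD, n = 3 each, two-sided exact permutation p = 0.6). The other same-strand row lies in the middle of the gene (26474449 to 26477210) and touches 3 exons. Only 453 of its 2762 bases are in coding exons and 2309 are outside exons, so it is mostly not an exon value. The log2 ratios of the Notch1 row to it were 1.31 ± 0.14 and 1.32 ± 0.15 (two-sided exact permutation p = 0.8, n = 3 each). Neither ratio differed beyond the spread between mice. The 3′ UTR row is also overlapped on the other strand by the noncoding gene 0610009E02Rik.

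Notch4 (chromosome 17, 34564295 to 34588543, plus strand), a receptor found mainly in endothelium, had 16.3, 7.56 and 8.07 RPKM in Ctrl and 12.1, 14.0 and 15.6 RPKM in NICeCA libraries. Ctrl replicate 1 was the highest of all 6 libraries, while the other Ctrl libraries were below every NICeCA library. The log2 fold change of 0.43 (standard error 0.26, 95% interval from -0.18 to 1.04) was not called (limma adjusted p = 0.28). Notch2 (chromosome 3, 98013538 to 98150367, plus strand), a receptor widely used by other cells, had 31.4, 36.7 and 47.6 RPKM in Ctrl and 29.4, 25.5 and 32.7 RPKM in NICeCA libraries. It was the only member with a negative value, the log2 fold change being -0.38 (standard error 0.18, 95% interval from -0.78 to 0.03, limma adjusted p = 0.17). It had the highest level of the receptors in each library, supplying 48.7% to 67.8% of receptor RPKM in Ctrl and 45.5% to 51.3% in NICeCA libraries.

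Notch3 (chromosome 17, 32120893 to 32166852, minus strand), the receptor of mural cells, had 2.47, 1.68 and 3.25 RPKM in Ctrl and 3.51, 2.94 and 5.76 RPKM in NICeCA libraries. Its groups overlapped by 1 pair of libraries, with Ctrl replicate 3 above NICeCA replicate 2, and the log2 fold change of 0.54 (standard error 0.24, 95% interval from -0.02 to 1.10) was not called (limma adjusted p = 0.15). NICeCA replicate 3, with the most Notch3, also had the highest mural marker sum (145 RPKM). Among mural markers, the pericyte gene Rgs5 was called higher (7.13 to 20.4 RPKM in Ctrl and 30.3 to 44.3 in NICeCA libraries, log2 fold change 1.40, limma adjusted p = 0.038), while the pericyte receptor Pdgfrb had 3.99 to 6.27 RPKM in Ctrl and 3.38 to 7.85 RPKM in NICeCA libraries. The part of mural RNA in the Notch3 values was not tested. As a share of receptor RPKM, Notch3 was wholly higher in NICeCA libraries (5.25% to 8.64% against 3.10% to 4.47%). The two-sided exact permutation p was 0.1 (n = 3 each), the smallest that this design allows. The shares of Notch1, Notch2 and Notch4 overlapped between groups. The log2 ratio of Notch4 to Notch3 had means of 2.07 and 1.83 and that of Notch4 to Notch1 had means of -0.23 and 0.11 in Ctrl and NICeCA libraries, and both overlapped (two-sided exact permutation p = 0.7 and 0.4, n = 3 each). The summed receptor level was 54.2 to 72.7 RPKM in Ctrl and 56.0 to 66.7 RPKM in NICeCA libraries.

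**Figure D3:**
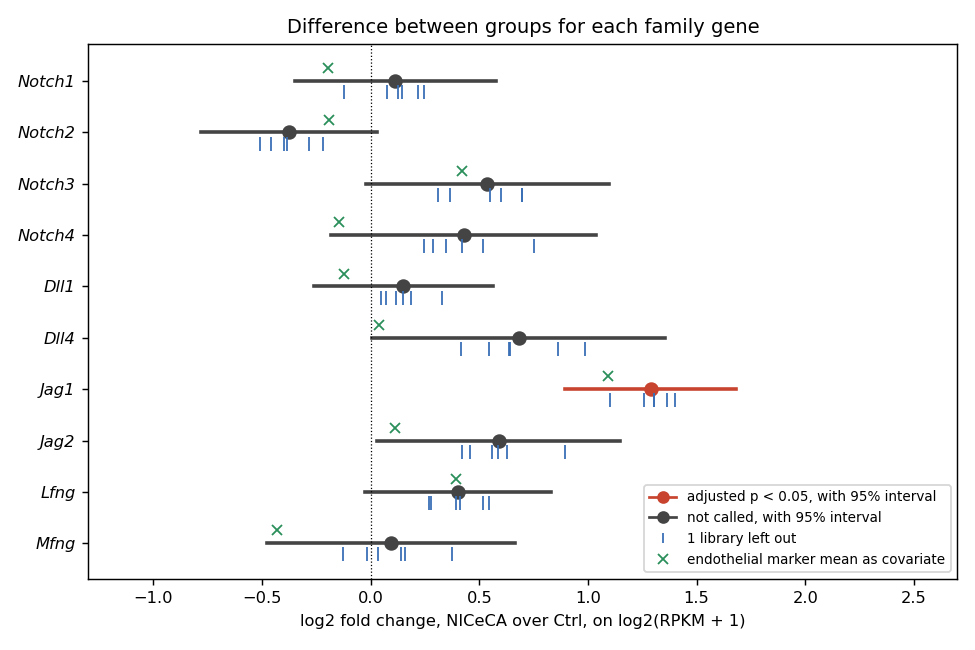
Log2 fold change of NICeCA over Ctrl on log2(RPKM + 1) for each member (horizontal axis), as a point with its 95% interval, with ticks for fits that left out 1 library and a cross for the fit with the endothelial marker mean as a covariate. Jag1 (red) was the only called member, at 1.29, and with the covariate, where no member was called, Jag1 was at 1.09, Dll4 went from 0.68 to 0.04 and Jag2 from 0.59 to 0.11.

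Among Fringe genes, Lfng (chromosome 5, 140607341 to 140615545, plus strand), which encodes Lunatic fringe, had 24.7, 20.3 and 28.8 RPKM in Ctrl and 39.3, 33.0 and 26.4 RPKM in NICeCA libraries. NICeCA replicate 3 fell inside the Ctrl range, and the log2 fold change of 0.40 (standard error 0.18, 95% interval from -0.02 to 0.83) was not called (limma adjusted p = 0.16). Mfng (chromosome 15, 78755883 to 78773445, minus strand), which encodes Manic fringe, had 15.8, 7.39 and 9.55 RPKM in Ctrl and 10.4, 13.2 and 10.1 RPKM in NICeCA libraries. The Ctrl libraries spanned the NICeCA libraries on both sides (log2 fold change 0.09, 95% interval from -0.48 to 0.66, limma adjusted p = 0.81). The log2 ratio of Mfng to Lfng was -1.23 ± 0.52 in Ctrl and -1.54 ± 0.33 in NICeCA libraries (SD, n = 3 each, two-sided exact permutation p = 0.6). Rfng, the remaining Fringe gene, had 4.57, 8.05 and 5.38 RPKM in Ctrl and 3.20, 3.28 and 3.66 RPKM in NICeCA libraries, wholly below, with a log2 fold change of -0.65 (standard error 0.18) that was not called (limma adjusted p = 0.054).

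Lfng was the only member whose promoter window held the RBPJ core, and its sequence is shown for that reason (RefSeq, GRCm38.p6, chr5:140607091-140607390, plus strand, 5′ to 3′). Capitals mark the core, TGGGAA or its reverse complement TTCCCA, at 135 and 108 bases before the start.

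Lfng: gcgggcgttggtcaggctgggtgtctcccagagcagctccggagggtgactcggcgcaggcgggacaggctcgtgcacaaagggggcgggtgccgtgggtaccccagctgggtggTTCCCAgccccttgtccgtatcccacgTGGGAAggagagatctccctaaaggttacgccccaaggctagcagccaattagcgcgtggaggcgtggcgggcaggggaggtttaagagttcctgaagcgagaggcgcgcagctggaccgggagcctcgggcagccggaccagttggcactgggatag

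The match closer to the start is also the longer form GTGGGAA, and it overlaps the palindrome CACGTG, which begins 112 bases before the start. No binding was measured in these samples.

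**Figure D4:**
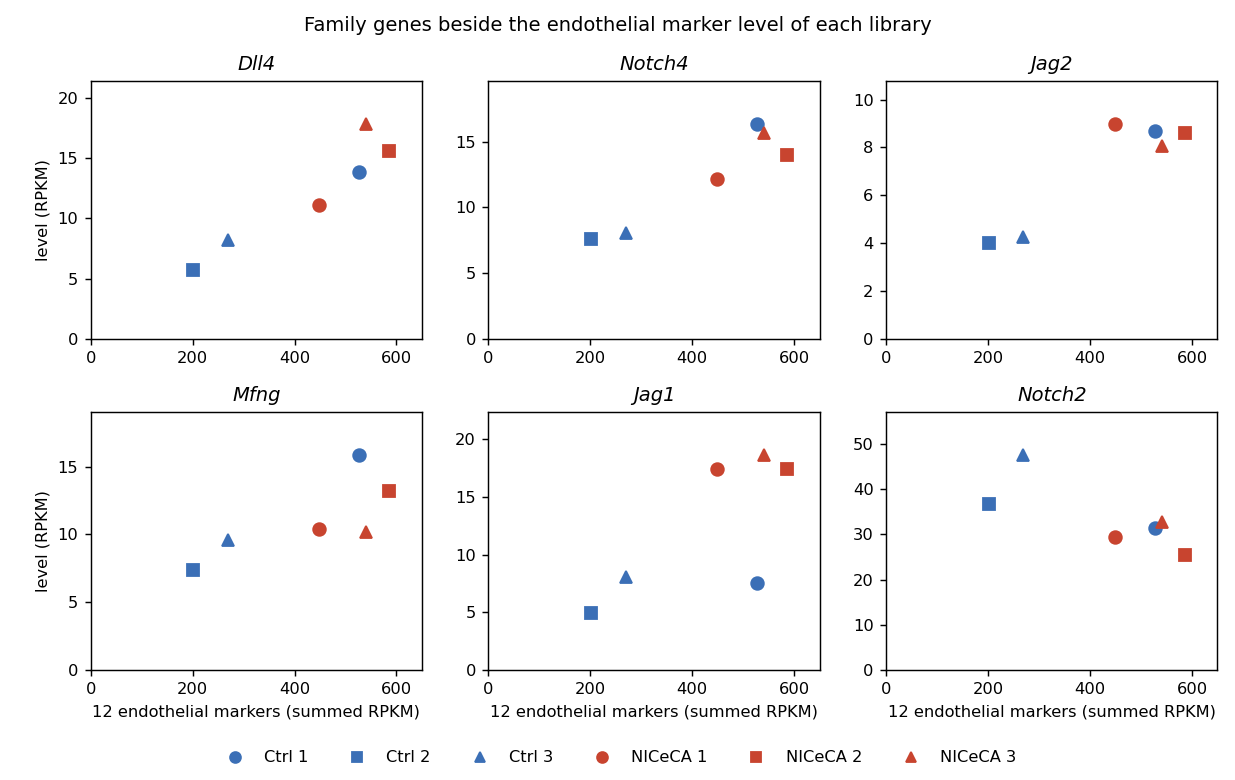
Level of 6 members in RPKM (vertical axes, from 0) against the summed RPKM of 12 endothelial markers (horizontal axes) in each of the 6 libraries, blue for Ctrl and red for NICeCA. Ctrl replicate 1 (527 on the horizontal axis) lies within the NICeCA range for Dll4 and Jag2, above it for Notch4 and Mfng, and at 7.54 RPKM with the other Ctrl libraries for Jag1.

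The level of several members was ordered within Ctrl as the endothelial marker sum was. All members but Notch2 had their lowest Ctrl level in Ctrl replicate 2, the library with the lowest endothelial sum. In Dll4, Notch4, Jag2, Mfng, Notch1 and Dll1, Ctrl replicate 1 exceeded both other Ctrl libraries. In Jag1, Lfng, Notch2 and Notch3, Ctrl replicate 3 was the highest Ctrl library. The share of all tested genes with either order was not computed. Without Ctrl replicate 1, 4 of 10 members were called higher, against 4.05% of all tested genes in that fit. They were Jag1 (log2 fold change 1.36, limma adjusted p = 0.0255), Dll4 (0.99, 0.048), Jag2 (0.89, 0.0255) and Notch4 (0.75, 0.040). The endothelial sums of the remaining Ctrl libraries (201 and 269 RPKM) were below those of every NICeCA library (448 to 586 RPKM).

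Set against the summed endothelial markers, Dll4 amounted to 2.85% ± 0.20 in Ctrl and 2.82% ± 0.43 in NICeCA libraries (SD, n = 3 each), and Jag2 to 1.74% ± 0.22 and 1.66% ± 0.30. Both were within the spread between mice on this scale, which was chosen after the values had been seen. Jag1 amounted to 1.43%, 2.46% and 2.98% in Ctrl and 3.89%, 2.97% and 3.45% in NICeCA libraries, where Ctrl replicate 3 exceeded NICeCA replicate 2 by a small margin. Notch4 (3.29% ± 0.41 against 2.66% ± 0.26) and Mfng (3.41% ± 0.35 against 2.15% ± 0.24) were wholly lower in NICeCA libraries on this scale. The endothelial sum that divides them was itself higher in every NICeCA library than in Ctrl replicates 2 and 3. The share of all tested genes that lay wholly lower on this scale was not computed, so the separation cannot be read as particular to Notch4 and Mfng. With the endothelial mean as a covariate, the log2 fold changes of Dll4, Jag2 and Notch4 were 0.04, 0.11 and -0.15, and the lowest limma adjusted p among the members was that of Jag1 (0.12).

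The other genes of the Notch pathway were taken from a list of 69 genes, of which 68 are in the table and 60 were tested. Of these, 1 was called higher and 11 lower, beside 5.88% and 7.68% of all tested genes, and 5 lay wholly above and 22 wholly below, beside 16.5% and 24.4%. The median log2 fold change of the list was -0.12, beside -0.05 over all tested genes. The median of all tested genes was 0.01 after trimmed mean scaling, under which the list had 2 genes called higher and 10 lower.

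**Figure D5:**
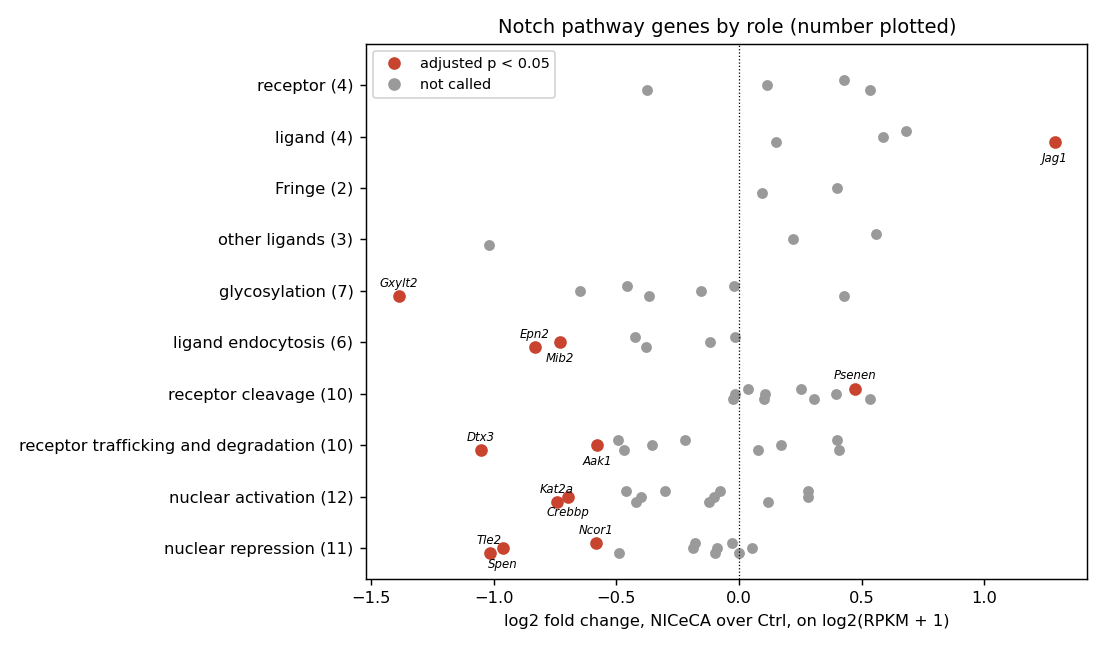
Log2 fold change of NICeCA over Ctrl on log2(RPKM + 1) (horizontal axis) for the members and 59 of the 60 tested genes of the pathway list, in rows by role with the number plotted in brackets. Called genes are red and named, with 3 of the 10 lower ones plotted among nuclear repressors and the 2 higher ones being Jag1 and Psenen.

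The machinery that cuts the receptor held the one gene called higher. Psenen, a subunit of the gamma-secretase complex that frees the ICD, had 26.4, 27.5 and 28.8 RPKM in Ctrl and 41.1, 39.7 and 35.4 RPKM in NICeCA libraries, which did not overlap (log2 fold change 0.47 ± 0.12 standard error, adjusted p = 0.041 by limma). Of the 10 tested genes of receptor cleavage, 8 had a positive value and none was called lower (median 0.18). Over all tested genes, 5509 of 12320 were positive.

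The median was negative in the genes that act on the ligand or on the receptor's sugars. Over all tested genes, 6811 of 12320 were negative and 7.68% were called lower. Of 6 tested genes of ligand endocytosis, which lets the sending cell pull on the receptor, none was positive and 2 were called lower (median -0.40, from -0.83 to -0.02). The 2 called genes were Mib2, a ubiquitin ligase that acts on ligands, with 10.5, 12.1 and 9.22 RPKM in Ctrl and 6.09, 5.58 and 6.18 RPKM in NICeCA libraries (log2 fold change -0.73, limma adjusted p = 0.021), and the endocytic adaptor Epn2 (-0.83, 0.035). Of 7 glycosylation genes, 6 were negative (median -0.37) and 1 was called lower, the xylosyltransferase Gxylt2, with 6.41, 10.8 and 6.40 RPKM in Ctrl and 1.82, 1.72 and 3.71 RPKM in NICeCA libraries (-1.39, 0.025). In each of the genes given here by library, the groups were apart. Of 10 genes of receptor trafficking and degradation, Dtx3 (-1.05, 0.034), of the Deltex family, and the kinase Aak1 (-0.58, 0.043) were called lower.

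In the nucleus, 4 of 12 tested genes of repression and 2 of 12 of activation were called lower, beside 7.68% of all tested genes, and none was called higher. These counts follow the roles of the list, which places Ctbp1 under activation although its relative Ctbp2 is under repression. Neither of these was called. Spen, which encodes a corepressor partner of RBPJ, had 11.3, 13.7 and 11.5 RPKM in Ctrl and 4.53, 5.69 and 7.31 RPKM in NICeCA libraries (log2 fold change -0.96 ± 0.17 standard error, adjusted p = 0.021 by limma), and every NICeCA library was below every Ctrl library. The corepressors Ncor1 (-0.58, limma adjusted p = 0.041) and Tle2 (-1.02, 0.044) were also called lower, as were, among activators, the acetyltransferases Crebbp (-0.70, 0.030) and Kat2a (-0.74, 0.044). Rbpj itself, named after its values were seen, had a log2 fold change of 0.28 that was not called (limma adjusted p = 0.43). None of the 11 lower calls was kept without NICeCA replicate 1 or without NICeCA replicate 2, where 14 and 1 of all tested genes were called lower, and of the fits that left out 1 library only that without Ctrl replicate 3 called Psenen. The fibroblast marker sum given above was also lower in every NICeCA library, its part in these values being untested.

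Binding of the ICD or RBPJ was not measured for the 9 genes listed as targets of Notch signaling. Of these, 6 were tested and 3 were called higher (Hey1, Gja4 and Gja5), beside 5.88% of all tested genes. The count was 0 without NICeCA replicate 2 and with the endothelial covariate, and 2 (Gja4 and Gja5) without NICeCA replicate 1 or 3 or Ctrl replicate 2 or 3, so that of the fits that left out 1 library only that without Ctrl replicate 1 called Hey1. Hey1 had 5.55, 2.69 and 2.78 RPKM in Ctrl and 6.05, 10.6 and 9.91 RPKM in NICeCA libraries (log2 fold change 1.10, limma adjusted p = 0.041), while Nrarp, a feedback inhibitor, had 16.5, 6.34 and 7.59 against 19.3, 21.1 and 21.0 RPKM (1.05, 0.052). Hes1 had 7.70 to 13.1 RPKM in Ctrl and 7.85 to 9.46 RPKM in NICeCA libraries, and Hey2 was under 0.2 RPKM in all.

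For each member, the tested genes with the most similar course over the 6 libraries were taken as those with the smallest root mean square difference of log2(RPKM + 1) after centering. For Jag1 they were Raet1c (0.10) and Gadd45b (0.11), for Dll4 Icam2 and Vwa1 (0.08 each), for Jag2 Lmcd1 (0.07) and Cxx1a (0.08), and for Dll1 Hoxb4 (0.03) and Rhob (0.05). For Notch1 they were H2-Q4 (0.05) and Skil (0.07), for Notch2 Prpf8 (0.04) and Dock5 (0.07), for Notch3 E330009J07Rik (0.11) and Mir26b (0.13), and for Notch4 Col4a2 (0.06) and Pvrl2 (0.08). For Lfng they were Arhgap9 (0.03) and Ogfrl1 (0.04), and for Mfng Arap3 (0.09) and Tacr1 (0.10). With 6 libraries of 2 groups and 12320 genes to choose from, these are descriptions of likeness only.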

How the data were processed

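RNA-seq libraries of CD31 bead fractions from LLC tumors of 3 Ctrl and 3 NICeCA mice were analysed, each with the group its label gives. The authors deposited RPKM values, 1 column per library, with reads aligned by TopHat2 according to the submitters' processing notes. Those notes name mm9, but 99.3% of 21665 rows matched by symbol overlap the same RefSeq gene on GRCm38, whose coordinates are given here. For the counting tool and its strand setting nothing is given in the sources used here, and reads of near-identical or overlapping genes may be shared. Whole reads were recovered from the steps of the RPKM values (100.0% whole within 0.05, over values under 1000 reads), which gave the depth. RefSeq rows with a mean of at least 1 RPKM were tested as log2(RPKM + 1) with limma 3.58.1 (R 4.3.3, empirical Bayes with trend, two-sided, Benjamini-Hochberg adjustment, threshold 0.05). The fold changes of low genes are understated on this scale. Ratios within a library were compared by exact permutation over 20 assignments. No pair of libraries of the same group agreed within sampling noise, and pairs across groups were not compared in this way. Members and gene lists were chosen with earlier results of these data known. Named genes are the members, Dll3 and Rfng, called pathway genes, set target and marker genes, and the 2 genes most like each member. Alternatives were other scalings, filters and pseudocounts, voom on recovered reads, a replicate block, an endothelial covariate and leaving out each library. RefSeq supplied the promoter windows (GRCm38.p6). A gene of the pathway list enters the counts but is not reported here by name or value.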

Additional observations from a re-analysis of the deposited data

How the results depend on the processing

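Among all genes, 725 were called higher and 946 lower. The counts were 327 and 209 with a replicate block, 446 and 325 after quantile normalization, 260 and 105 with no filter, 1346 and 1992 at an adjusted p under 0.1, 0 and 0 with the endothelial covariate, 962 and 687 after trimmed mean scaling, and 943 and 744 by voom on recovered reads. With a mean of at least 5 RPKM, 579 were called lower, and leaving out 1 library gave 26 to 913 higher (26 without NICeCA replicate 2) and 1 to 832 lower. The numbers of members called higher were 0 with the covariate and 0 to 4 with 1 library left out. Of pathway genes, 0 were called higher and 4 lower with the replicate block, 0 and 7 after quantile normalization, 2 higher after trimmed mean scaling and by voom, 0 and 2 with no filter, 4 and 18 at an adjusted p under 0.1, and 0 and 0 with the covariate. Leaving out 1 library gave 0 to 1 higher and 0 to 9 lower. The paper describes the mice as pairs of NICeCA and control animals, and whether the replicate numbers mark those pairs is not stated. Same-numbered libraries had correlations of 0.12, -0.34 and -0.18 in their deviations, so the replicate numbers were not taken as pairs. Differently numbered libraries reached 0.44 (Ctrl replicate 2 with NICeCA replicate 3), and a pairing under other numbers was not tested. The log2 fold change turned negative without Ctrl replicate 2 in Notch1 (-0.12, range -0.12 to 0.24 with 1 library left out) and Mfng (-0.13, range -0.13 to 0.37) and without NICeCA replicate 2 in Mfng (-0.018). With the covariate it was -0.20 in Notch1, -0.15 in Notch4, -0.12 in Dll1 and -0.43 in Mfng. Relative to the summed endothelial markers, a scale chosen after seeing the data, it was -0.65 in Notch1, -1.16 in Notch2 (-0.38 as deposited), -0.057 in Notch3, -0.30 in Notch4, -0.51 in Dll1, -0.023 in Dll4, -0.082 in Jag2, -0.36 in Lfng and -0.67 in Mfng, while Jag1 stayed positive (0.64). The log2 ratio of Notch4 to Notch3 was 0.085 without Ctrl replicate 1, and with 1 library left out the differences in log2 ratio were -0.62 to 0.085 for it, -0.84 to -0.41 for Dll4 to Jag1, 0.07 to 0.56 for Notch4 to Notch1, -0.49 to -0.01 for Mfng to Lfng and -0.54 to -0.26 for summed Dll to summed Jag. The cause of these changes was not tested.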
